A study of Mus musculus with 4 samples.

Results

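The cells described here were cushion mesenchyme cells of the embryonic mouse ventricle that carried *Rtn1* or *Car3* transcripts. Of 45551 cell barcodes in 4 libraries, 35351 had 1000 to 7000 detected genes and at most 10% mitochondrial UMIs (unique molecular identifiers, each counting a captured transcript). Among these, cushion cells were taken as barcodes with cardiomyocyte genes (*Tnnt2*, *Actc1*, *Tnnc1*, *Ttn*) below 0.5% of UMIs, at most 1 UMI of the endothelial genes *Pecam1*, *Cdh5*, *Emcn* and *Egfl7*, and *Eln* plus *Fbln5* below 0.3% of UMIs. They further had at least 3 UMIs of *Sox9*, *Lum*, *Cthrc1* and *Papss2* together, more of these than of the fibroblast genes *Tcf21*, *Pid1*, *Hpse2* and *Lsp1*, and at most 1 UMI of the cartilage collagens *Col9a1* and *Col9a3*. Of the 2220 barcodes in this gate, 825 held at least 2 UMIs of *Rtn1* plus *Car3* and are called Rtn1/Car3 cells. The other 1395 held 0 or 1 such UMI and are called other cushion cells. These 22 genes chose the cells, so their levels are given as a description and were not tested.

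The libraries were made from ventricles collected at embryonic day 14.5, with single-cell capture and counting of transcript 3' ends on the 10x platform, and each library pooled 3 ventricles. There were 2 control libraries, *Tie2*Cre;*Ets1* fl/+, and 2 *Ets1* endothelial knockout (eKO) libraries, *Tie2*Cre;*Ets1* fl/fl, from mice kept on a C57BL/6 background. Controls thus also carried the Cre transgene and a floxed *Ets1* allele next to a wild-type allele. *Tie2*Cre is active in endothelial, endocardial and hematopoietic cells, and mesenchyme that descends from endocardium inherits the recombined allele.

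Endocardial cushions form where endocardial cells leave their sheet, enter the jelly-like matrix of the heart wall and become mesenchyme, which is later remodelled into valve leaflets and septa. Their matrix is rich in hyaluronan and the proteoglycan versican (*Vcan*), which the link protein made by *Hapln1* holds together, and in the secreted matrix protein periostin (*Postn*). *Rtn1* encodes a reticulon that shapes the endoplasmic reticulum and is best known from neurons, whereas *Car3* encodes a cytosolic carbonic anhydrase best known from muscle and fat. *Rtn1* lies at chr12:72211752-72409054 on the minus strand and *Car3* at chr3:14863512-14872523 on the plus strand of the GRCm38 (mm10) build, both annotated as protein-coding genes.

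The libraries differed in depth. Control replicates 1 and 2 held 124140739 and 76931208 UMIs, and the *Ets1* eKO replicates held 95131419 and 102872196. Where 4 values follow each other below, they keep this library order. Rtn1/Car3 cells numbered 192 and 173 in the controls, and 190 and 270 in the *Ets1* eKO libraries. Their summed UMIs were 1454176, 1368485, 1347802 and 1202186 in the same order. The median Rtn1/Car3 cell held 6558.5 and 6931 UMIs in controls, against 6138.5 and 3893.5 in *Ets1* eKO libraries. *Ets1* eKO replicate 2 was therefore the shallowest library per cell, also in the other cushion cells, whose medians were 5710, 5369, 4804 and 3139.5 UMIs.

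Further differences between libraries preceded any comparison. The female-specific transcript *Xist* stood at 0, 376, 283 and 672 CPM (UMIs scaled to a common total of the class in the library) in the Rtn1/Car3 cells. The Y-linked gene *Ddx3y* stood at 77.7, 35.8, 32.6 and 0 CPM in the same libraries. The sex ratio of the pools thus differed, with the outermost values in control replicate 1 and *Ets1* eKO replicate 2, and embryo sex was not recorded. The erythroid marker genes (7 of 7 with a UMI, most abundant *Hbb-y*, none at 0) summed to 194, 87.0, 191 and 24931 CPM. The high value came from 2 cells of *Ets1* eKO replicate 2 with over 2% hemoglobin UMIs, and without them that library stood at 298 CPM. Pairs of libraries shared between 19 and 47 barcode sequences, and 0 barcodes were Rtn1/Car3 cells in both libraries of a pair. Doublets were left in, and removing the highest-scoring barcodes in each library would have taken 0, 1, 5 and 1 of the Rtn1/Car3 cells.

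*Ets1*, the targeted transcription factor gene (chr9:32636221-32757820, plus strand), was lower in the *Ets1* eKO libraries. In Rtn1/Car3 cells it stood at 92.8 and 70.9 CPM in controls against 51.2 and 38.3 CPM in *Ets1* eKO libraries, from 135, 97, 69 and 46 UMIs. The groups did not overlap, but the difference did not pass the test across all genes (log2 change -0.78, SE 0.21, adjusted p = 0.326 by edgeR's quasi-likelihood test, n = 2 libraries per group). Without *Ets1* eKO replicate 1 the value was -0.99 and passed (adjusted p = 0.0166, with the lone eKO library assumed to vary like the controls). Other cushion cells held 77.6 and 66.1 CPM in controls against 47.4 and 40.5 CPM, and endothelial cells 305 and 273 CPM against 136 and 102 CPM. The sources used here do not say which exons are floxed, so whether 3' UMIs report the deletion itself was not tested.

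The 12 listed cushion markers, none of which chose the cells, summed to 8826, 8653, 8641 and 7955 CPM in the Rtn1/Car3 cells. All 12 had UMIs there, none was at 0, but the same held in every other class, so detection tells nothing of identity. The sums were lower in *Tcf21*-type fibroblasts (5342, 5605, 5380 and 4611 CPM) and epicardial cells (6389, 6040, 5534 and 4811 CPM). Cartilage-collagen cushion cells held 9713, 9641, 10252.5 and 8865 CPM, above the Rtn1/Car3 cells in each library. Other cushion cells held 7939, 8182, 8751 and 7555 CPM, above the Rtn1/Car3 cells in *Ets1* eKO replicate 1. In the elastin-rich cells set aside by the *Eln* and *Fbln5* limit the sums were 6792, 5700, 10432 and 5959 CPM. This was above the Rtn1/Car3 cells in *Ets1* eKO replicate 1, where the elastin-rich class held only 4 cells. The most abundant marker was *Postn*, at 1747, 1342, 1822 and 1373 CPM. Its level in endothelial cells was 187, 188, 212 and 175 CPM, and in cardiomyocytes 13.5, 7.39, 10.9 and 12.8 CPM. *Hapln1* stood at 185, 171, 196 and 290 CPM in Rtn1/Car3 cells, at most at 15.3 CPM in *Tcf21*-type fibroblasts and at most at 1.96 CPM in cardiomyocytes of any library. In cartilage-collagen cushion cells *Postn* stood at 1711, 1350, 1874 and 1470 CPM and *Hapln1* at 202, 170, 243 and 316 CPM, so neither gene set the Rtn1/Car3 cells apart from these. *Twist1*, a transcription factor of cushion mesenchyme, stood at 318, 302, 327 and 446 CPM, and *Vcan* at 1439, 1256, 1213 and 1421 CPM. The label was kept because these levels did not go against it.

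Marker sums of other cell types are given as a description. The endothelial, cardiomyocyte, *Tcf21*-type, smooth muscle and cartilage lists hold genes that the gate limited, so that their sums are partly fixed by the selection. Of the endothelial markers 12 of 12 had UMIs and summed to 232, 191, 200 and 180 CPM, led by *Nfatc1*, with none at 0. Cardiomyocyte markers (12 of 12, led by *Tpm1*, none at 0) summed to 1507, 1082, 1379 and 1925 CPM. Smooth muscle and pericyte markers (11 of 11, led by *Tagln*, none at 0) summed to 1546, 1391, 1319 and 1286 CPM. *Tcf21*-type fibroblast markers (8 of 8, led by *Gpc3*, none at 0) summed to 827, 981, 911 and 849 CPM. Of these sums the cardiomyocyte genes varied the most, and stood highest in *Ets1* eKO replicate 2. Immune markers (9 of 9, led by *Lyz2*, none at 0) summed to 3.44, 7.31, 37.8 and 34.1 CPM and were higher in both *Ets1* eKO libraries. Epicardial markers (8 of 8, led by *Tbx18*, none at 0) summed to 87.3, 366, 128 and 69.0 CPM and stood highest in control replicate 2. Cartilage markers had UMIs for 11 of 13 genes (1484, 1401, 1259 and 1314 CPM, led by *Sox5*), with *Matn1* and *Snorc* at 0 and *Acan* at 0.688, 0, 2.97 and 1.66 CPM. Tendon-type markers had UMIs for 6 of 7 genes (277, 295, 246 and 189 CPM, led by *Tnc*), with *Tnmd* at 0. The part of these genes in the results below was not tested.

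Which cells of the ventricle carried *Rtn1* and *Car3* was read from all classes. *Rtn1* was detected in 92.8% of the Rtn1/Car3 cells and *Car3* in 28.1%, as the selection requires at least 1 of them. In other cushion cells, which the rule limited to at most 1 UMI of the 2 genes together, 25.2% held *Rtn1* and 3.08% held *Car3*. Cardiomyocytes held *Rtn1* in 1.95% and *Car3* in 0.280% of cells at library medians between 8484.5 and 13883 UMIs, above the medians of the cushion cells. *Rtn1* was also common in the cushion cells with cartilage collagens, which the gate had set aside, where 62.5% held it. Of these 2452 cells, 47.9% would have met the requirement of 2 UMIs. The share was 8.84% in epicardial cells, 5.59% in elastin-rich cells, 5.33% in *Tcf21*-type fibroblasts, 4.73% in endothelial cells and 0.643% in cardiomyocytes.

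Among the classes given next, the levels of *Rtn1* followed the same order as its detection. Rtn1/Car3 cells stood at 508, 423, 558 and 715 CPM. Cartilage-collagen cushion cells followed with 284, 219, 422 and 428 CPM, below the Rtn1/Car3 cells in each library. Epicardial cells (58.5, 67.1, 63.7 and 47.9 CPM), other cushion cells (43.0, 34.6, 53.6 and 67.2 CPM) and *Tcf21*-type fibroblasts (41.9, 37.8, 23.6 and 28.4 CPM) lay close together, each overlapping with the next. Endothelial cells stood at 29.5, 22.9, 27.6 and 31.7 CPM, overlapping with the fibroblasts. *Car3* was more uneven, at 325, 166, 266 and 207 CPM in Rtn1/Car3 cells and 123, 75.9, 83.8 and 52.3 CPM in cartilage-collagen cushion cells. Endothelial cells had at most 1.20 CPM of *Car3* in any library.

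**Figure D1:**
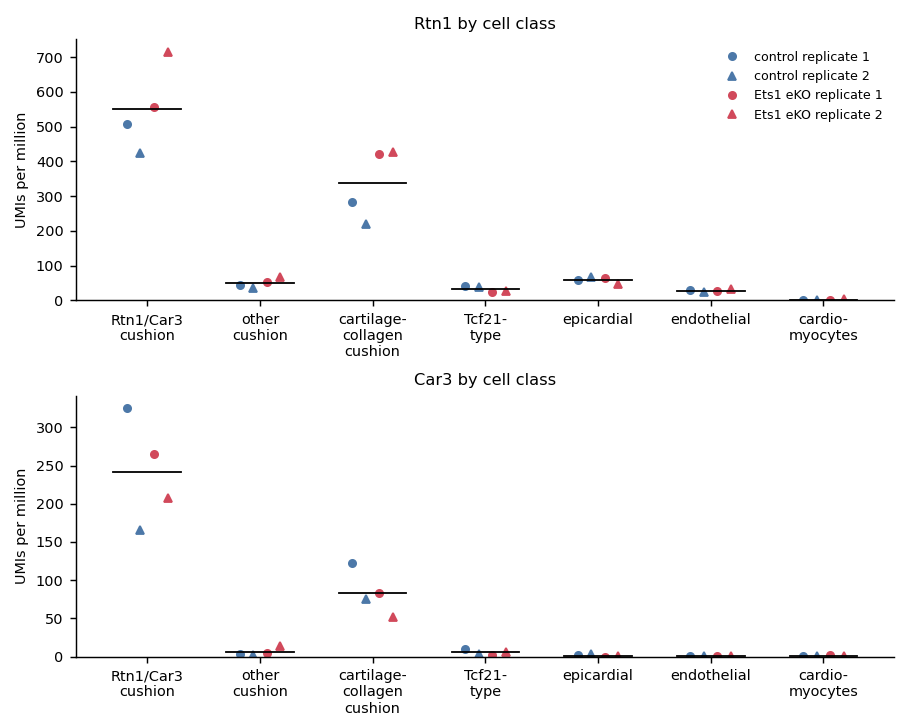
Levels of Rtn1 and Car3 in CPM (UMIs scaled to a common total) (vertical axis, linear scale) in 7 cell classes (horizontal axis). Each class has a point for each of the 4 libraries and a black line at their mean. Both genes stood highest in the Rtn1/Car3 cells, which were chosen on them, and next highest in the cushion cells with cartilage collagens, which were not.

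*Rtn1* and *Car3* marked overlapping but unequal sets of cells. Of the 825 Rtn1/Car3 cells, 593 (71.9%) held *Rtn1* alone, 59 (7.15%) held *Car3* alone and 173 held both. Among all cushion cells of the gate, *Car3* was found in 15.4% of cells with *Rtn1* and 7.88% of cells without it in control replicate 1, and in 16.8% and 7.67% in control replicate 2. For *Ets1* eKO replicate 1 the shares were 17.6% and 9.90%, and for replicate 2 of that group 13.2% and 11.1%. *Car3* was thus more frequent beside *Rtn1* in each library, by the least in the shallowest. Cells with *Rtn1* were also the deeper ones, with median UMIs of 6187 against 5951, 6377 against 5458.5, 5690 against 4799.5, and 3763 against 3108, and the part of depth in these shares was not tested.

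The threshold fell within a continuum of counts. Just outside it, 93, 82, 85 and 135 cells held 1 UMI of *Rtn1* plus *Car3*. Just inside it, 57, 52, 58 and 97 cells held 2 UMIs. A larger group of 96, 86, 102 and 108 cells held 4 or more, and single cells reached 23 UMIs of *Rtn1* and 68 UMIs of *Car3*. Median depth was 5521, 5777, 5037 and 3276 UMIs at 1 UMI and 8231, 7688.5, 7055.5 and 4803 UMIs at 4 or more, so the cells with 4 or more also held more transcripts in all. From 0 to 3 UMIs the libraries differed, with medians of 5772, 5521, 5870 and 5746 UMIs in control replicate 1 and a rise at each step in *Ets1* eKO replicate 2 (3064, 3276, 3358 and 3841 UMIs).

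Rtn1/Car3 cells differed from the other cushion cells of the same libraries in single genes and in cell cycle genes. Higher in them were *Ptprb*, *Hapln1*, *Limch1*, *Tagln* and *Cnn1*, and lower were *Slit2*, the small proteoglycan genes *Aspn* and *Ogn*, and *Gabrb1*, *Nlgn1* and *Grik2*. Across 10254 tested genes, with library as a term in edgeR's quasi-likelihood test and 1 sum per class and library (n = 4 libraries), 867 passed at an adjusted p under 0.05 (8.46%). Of these, 451 were higher (4.4%) and 416 lower (4.06%) in Rtn1/Car3 cells. Genes named below for the size of their difference had to keep their direction in 4 of 4 libraries, so that count adds no support for them.

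*Ptprb*, a receptor tyrosine phosphatase best known from endothelium, had the largest difference among the genes that passed and averaged at least 100 CPM in either class. It stood at 118, 109, 160 and 116 CPM in Rtn1/Car3 cells and at 39.5, 53.8, 44.6 and 50.2 CPM in other cushion cells (log2 difference 1.40, SE 0.11, adjusted p = 9.84e-11, higher in 4 of 4 libraries). *Hapln1*, the link protein of hyaluronan and versican (chr13:89539796-89611652, plus strand), stood at 185, 171, 196 and 290 CPM against 86.0, 93.4, 90.6 and 139 CPM (1.04, SE 0.08, adjusted p = 4.56e-12). The lowest Rtn1/Car3 library lay above the highest other library for both genes. *Limch1*, whose product binds actin and myosin, stood at 497, 441, 398 and 379 CPM against 245, 282, 198 and 195 CPM (0.90, SE 0.06, adjusted p = 1.54e-12). The actin-binding protein gene *Tagln* stood at 657, 574, 559 and 660 CPM against 377, 326, 264 and 439 CPM (0.82, SE 0.07, adjusted p = 3.79e-11). Both actin-linked genes were higher in 4 of 4 libraries without overlap. Also higher in 4 of 4 libraries were the hyaluronan-binding gene *Itih5* (0.96), the Ras-like GTPase gene *Rerg* (0.95), calponin *Cnn1* (0.90), the cAMP-activated exchange factor *Rapgef4* (0.87), nestin *Nes* (0.84), the histone gene *Hist1h2ae* (0.75) and *Crip1* (0.75). The cytidine deaminase gene *Cda* was higher by 0.76, but did not pass when cells with 3 or more UMIs of *Rtn1* plus *Car3* were set against cells with 0 (1.02, adjusted p = 0.122). *Postn* (chr3:54361109-54391037, plus strand), at 1747, 1342, 1822 and 1373 CPM against 1258, 1045, 1258 and 1124 CPM, was higher by a smaller step (0.42, SE 0.05, adjusted p = 2.72e-07, 4 of 4 libraries).

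Other genes were lower in Rtn1/Car3 cells. *Slit2*, a secreted ligand of Robo receptors, stood at 226, 188, 196 and 155 CPM in Rtn1/Car3 cells and at 423, 406, 400 and 278 CPM in other cushion cells (-0.98, SE 0.07, adjusted p = 1.09e-13, lower in 4 of 4 libraries). Asporin, *Aspn*, stood at 33.0, 43.8, 43.0 and 18.3 CPM against 98.3, 111, 98.2 and 70.8 CPM (-1.46, SE 0.12, adjusted p = 2.82e-11). No library of either gene overlapped with the other class. *Gabrb1*, a subunit of the GABA-A receptor, stood at 10.3, 17.5, 17.8 and 15.0 CPM against 29.6, 29.2, 80.3 and 66.6 CPM (-1.70, SE 0.19, adjusted p = 8.39e-08). The adhesion and receptor genes *Nlgn1* (-1.55), *Grik2* (-1.52), *Pcdh7* (-1.45), *Il1rapl1* (-1.33) and *Lsamp* (-1.03) were lower in 4 of 4 libraries, as were *Crabp1*, a retinoic acid-binding protein gene (-0.98), and *Akap12* (-0.91). *Gucy1a1*, a subunit of soluble guanylate cyclase, was lower by -1.37 (adjusted p = 0.0252), and without control replicate 2 it no longer passed (-1.44, adjusted p = 0.0983). The adhesion gene *Negr1* (-0.97) no longer passed in cells of 5000 to 20000 UMIs (-0.74, adjusted p = 0.0562) or with 3 or more UMIs set against 0 (-1.37, adjusted p = 0.139).

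The count of genes moved with tool and depth. DESeq2 called 240 genes, 233 of them among the 867, and edgeR in cells of 5000 to 20000 UMIs called 470 of 9445 tested genes, 405 of them among the 867. Of the genes named above, those given without an exception passed in each of these settings and with each library left out in turn.

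Most cell cycle genes were higher in Rtn1/Car3 cells. Of 22 tested S phase genes, 13 were higher and 0 lower, with a median log2 difference of 0.51, and all 22 lay above 0. Of 23 tested G2 and mitosis genes, 17 were higher and 0 lower, with a median of 0.54, beside a median of -0.00 over all tested genes. *Top2a*, the topoisomerase that untangles replicated chromosomes, stood at 268, 227, 277 and 225 CPM against 133, 168, 149 and 175 CPM (0.68, adjusted p = 6.23e-06, 4 of 4 libraries). *Mki67*, a marker of cycling cells, stood at 117, 125, 142 and 108 CPM against 99.3, 91.1, 87.2 and 80.5 CPM (0.45, adjusted p = 0.000853, 4 of 4 libraries). In cells of 5000 to 20000 UMIs the medians were 0.36 and 0.33 and the counts fell to 2 of 22 and 7 of 23, *Mki67* not among them (0.23, adjusted p = 0.289). With DESeq2 they were 0 of 22 and 6 of 23, and *Mki67* again did not pass (adjusted p = 0.0832).

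Most glycolysis and hypoxia genes and some immediate early genes were lower. Of 20 tested glycolysis and hypoxia genes, 0 were higher and 12 lower (median -0.31), among them phosphoglycerate kinase *Pgk1*, at 135, 156, 134 and 205 CPM against 170, 245, 181 and 298 CPM (-0.49, adjusted p = 1.10e-05, lower in 4 of 4 libraries). Of 19 tested immediate early and heat shock genes, 1 was higher and 8 lower (median -0.09). The higher gene, the chaperonin cofactor *Hspe1*, did not pass without control replicate 1 (0.20, adjusted p = 0.101), *Ets1* eKO replicate 1 (0.16, adjusted p = 0.214) or the other eKO library (0.21), or by DESeq2 (adjusted p = 0.248). *Junb* stood at 324, 216, 160 and 190 CPM against 502, 336, 270 and 327 CPM (-0.70, adjusted p = 1.34e-10). *Fos* stood at 1338, 879, 866 and 712 CPM against 1618, 1321, 1303 and 1130 CPM (-0.53, adjusted p = 1.58e-08). These early response genes, which cells switch on within minutes of a stimulus and often during tissue dissociation, were lower in 4 of 4 libraries. In cells of 5000 to 20000 UMIs, 5 of 19 glycolysis and hypoxia genes and 5 of 18 immediate early and heat shock genes were lower, and with DESeq2 2 of 20 and 6 of 19.

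Matrix genes went both ways. Of 19 tested proteoglycan and hyaluronan genes, 3 were higher (*Hapln1*, *Vcan* and the hyaluronan receptor *Cd44*) and 7 lower (median -0.25). *Cd44* did not pass without control replicate 1 (0.56, adjusted p = 0.199) or *Ets1* eKO replicate 2 (0.69, adjusted p = 0.0796), or by DESeq2 (adjusted p = 0.0553). *Ogn*, a small leucine-rich proteoglycan gene, was the most reduced of them, at 6.88, 5.85, 11.1 and 6.65 CPM against 28.2, 25.1, 46.7 and 28.4 CPM (-2.06, SE 0.21, adjusted p = 4.74e-09). *Vcan* was higher in 4 of 4 libraries (0.42, adjusted p = 3.39e-06), and in cells of 5000 to 20000 UMIs it missed the threshold at a larger value (0.67, adjusted p = 0.0555). Of 28 tested collagen and matrix fibre genes, 5 were higher and 8 lower (median -0.13). *Col3a1*, at 1602, 1648, 1451 and 1232 CPM against 1797, 1934, 2018 and 1482 CPM (-0.28, adjusted p = 0.000128), and fibronectin *Fn1* (-0.34, adjusted p = 0.000147) were lower in 4 of 4 libraries. *Sparc*, counted among the higher genes, turned to -0.01 in cells of 5000 to 20000 UMIs (adjusted p = 0.981), and did not pass without control replicate 2 (0.13, adjusted p = 0.320) or without *Ets1* eKO replicate 1 (0.21, adjusted p = 0.0721).

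Genes of several signalling lists passed. Over all tested genes of this comparison, 4.4% were higher and 4.06% lower. Whether a list exceeded these shares was not tested, and counts of 1 gene tell nothing of a list. Of 23 tested growth factor and receptor genes, 3 were higher and 7 lower. *Igfbp4*, which binds insulin-like growth factors, stood at 124, 144, 119 and 120 CPM against 223, 236, 223 and 224 CPM (-0.84, adjusted p = 2.08e-10), while *Igfbp7* was higher (0.47, adjusted p = 1.39e-05), each in 4 of 4 libraries. The epidermal growth factor receptor gene *Egfr* was lower (-0.64). Of 22 tested Wnt genes, 1 was higher, the feedback gene *Axin2* (0.76, adjusted p = 0.00572), which did not pass without control replicate 1 (0.66, adjusted p = 0.0740) or by DESeq2 (adjusted p = 0.333). Another 4 were lower, led by the secreted Wnt binder *Sfrp2* (-0.67, adjusted p = 1.84e-06). Of 24 tested BMP and TGF-beta genes 2 were higher and 3 lower, of 12 Notch genes 1 and 1, of 16 imprinted growth genes 0 and 4, and of 24 guidance genes 0 and 4, among them *Slit2* and the ephrin receptor gene *Epha7* (-0.44). Among 13 ETS factors, *Etv4* was higher (0.95, adjusted p = 0.000347, by DESeq2 0.0514), and *Ets1* did not pass (0.12, SE 0.11, adjusted p = 0.611).

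Among 25 tested cushion transcription factors 3 were higher and 3 lower, with a median close to that of all genes. *Prrx1*, a homeobox gene of mesenchyme, was higher (0.34) and *Scx*, a factor of tendon precursors and developing valves, was lower, at 80.5, 84.8, 82.4 and 78.2 CPM against 121, 157, 99.6 and 106 CPM (-0.57, adjusted p = 0.000108, 4 of 4 libraries). *Scx* did not pass in cells of 5000 to 20000 UMIs (-0.38, adjusted p = 0.204). Of the 12 cushion markers, 3 were higher (*Hapln1*, *Postn*, *Vcan*) and 2 lower (*Pdgfra*, *Col3a1*). *Pdgfra*, a growth factor receptor gene of mesenchyme, did not pass without control replicate 1 (-0.27, adjusted p = 0.0767) or *Ets1* eKO replicate 1 (-0.26, adjusted p = 0.0877), or by DESeq2 (adjusted p = 0.268). Of the markers of other cell types, smooth muscle and pericyte genes gave 3 higher (*Cnn1*, *Tagln*, *Acta2*) and 1 lower (*Rgs5*) of 7 tested, endothelial genes 1 higher of 4 (*Flt1*, 0.92, not past the threshold with 3 or more UMIs set against 0, adjusted p = 0.195), and epicardial genes 1 lower of 4 (*Wt1*, -1.24). In cells of 5000 to 20000 UMIs *Acta2* (0.08, adjusted p = 0.811) and *Rgs5* (-0.62, adjusted p = 0.141) did not pass. *Wt1* did not pass without control replicate 1 (-0.98), *Ets1* eKO replicate 1 (-0.90) or the other eKO library (-1.27), or by DESeq2 (adjusted p = 0.104). Cardiomyocyte genes gave 0 calls of 7 in edgeR's test, with 1 at an unadjusted p under 0.05, and erythroid genes (6 tested) and immune genes (2 tested) gave 0 at either threshold.

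The erythroid sums nevertheless differed, at 194, 87.0, 191 and 24931 CPM in Rtn1/Car3 cells against 18296, 5730, 9794 and 20588 CPM in other cushion cells. All 6 tested erythroid genes lay below 0 (median -4.62). Other cushion cells included 4, 2, 3 and 7 cells with over 2% hemoglobin UMIs, and once such cells were removed from both classes the median was -0.21, with 1 of 5 lower. Among further lists, cartilage genes gave 2 higher (*Sox5*, *Sox6*) and 1 lower (*Col11a1*, -0.68) of 6, tendon-type genes 2 lower of 4 (*Scx*, *Tnc*) and *Tcf21*-type fibroblast genes 1 lower of 4 (*Gpc3*, -0.27). *Sox5* (0.21) did not pass without control replicate 1 (0.15, adjusted p = 0.276), control replicate 2 (0.21, adjusted p = 0.114) or *Ets1* eKO replicate 2 (0.17, adjusted p = 0.228), nor *Sox6* (0.24) without the latter (0.18, adjusted p = 0.208). *Gpc3* did not pass without *Ets1* eKO replicate 1 (-0.19, adjusted p = 0.0723), and *Sox5* (adjusted p = 0.178), *Sox6* (adjusted p = 0.158) and *Tnc* (adjusted p = 0.0634) did not by DESeq2. Mitochondrially encoded genes lay below 0 in 11 of 11 and were lower in 3, *mt-Co1* (-0.24), *mt-Co2* (-0.16) and *mt-Co3* (-0.14). In cells of 5000 to 20000 UMIs *mt-Co2* (-0.08, adjusted p = 0.453) and *mt-Co3* (-0.04, adjusted p = 0.795) did not pass. Neither passed without control replicate 2 (-0.16, adjusted p = 0.0649, and -0.14, adjusted p = 0.0929), and *mt-Co3* also not without control replicate 1 (-0.13, adjusted p = 0.0643).

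**Figure D2:**
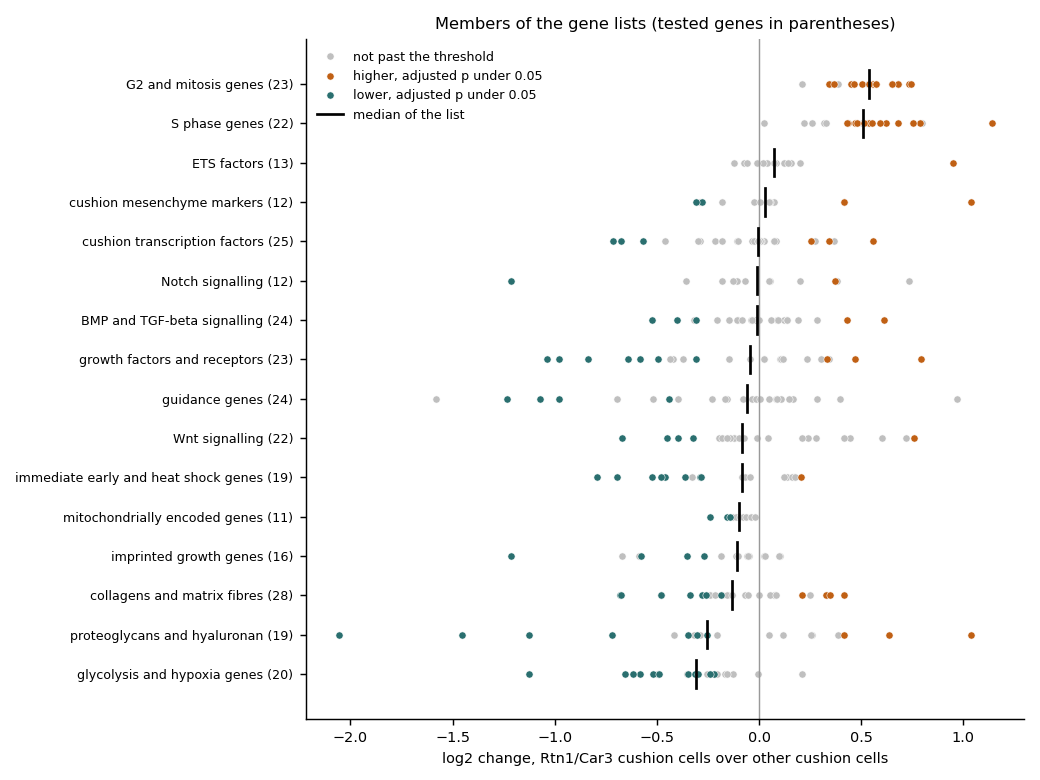
Log2 difference between Rtn1/Car3 cells and other cushion cells (horizontal axis) for the tested genes of each list with at least 10 of them (vertical axis), with a point per gene, orange where higher, teal where lower and grey where not past the threshold, and a black bar at the list median. S phase and G2 genes lie to the right of 0 and glycolysis and hypoxia genes mostly to the left.

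Cells with 0 and with 4 or more UMIs of *Rtn1* plus *Car3* lay farthest apart in *Hapln1* and *Slit2*, without an even course between. *Hapln1* averaged 80.5 CPM (SD 38.3, n = 4 libraries) in cells with 0 such UMIs, 158 CPM (SD 25.7) at 1, 153 CPM (SD 79.9) at 2, 154 CPM (SD 79.3) at 3 and 257 CPM (SD 44.4) at 4 or more. *Slit2* averaged 434 CPM (SD 64.1) at 0, 244 CPM (SD 68.0) at 1, 275 CPM (SD 61.7) at 2, 208 CPM (SD 31.5) at 3 and 143 CPM (SD 37.1) at 4 or more. For *Slit2*, cells with 1 UMI already stood nearer to cells with 2 than to cells with 0 in each library. For *Hapln1* this held for the means but not in *Ets1* eKO replicate 2, at 138, 142 and 262 CPM for 0, 1 and 2 UMIs. In control replicate 2, *Hapln1* stood at 59.0, 196 and 69.4 CPM in the same order. *Tagln* behaved otherwise, with 357, 333, 392 and 360 CPM at 0, 1, 2 and 3 UMIs and 810 CPM (SD 79.8) at 4 or more. The summed G2 and mitosis genes averaged 1422, 1409, 1139, 1726 and 2539 CPM from 0 to 4 or more UMIs, so their higher level also lay mainly in the cells with the most *Rtn1* and *Car3*. These cells were the deepest of the gate, and the part of depth was not tested here.

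**Figure D3:**
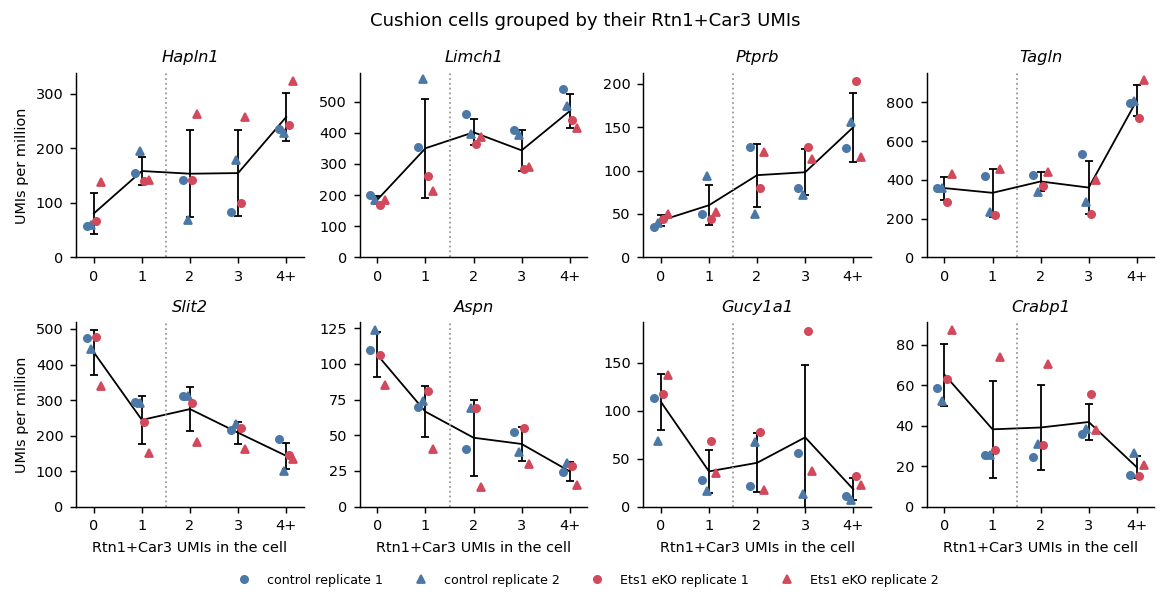
Levels of 8 genes in CPM (UMIs scaled to a common total) (vertical axes) in cushion cells grouped by their number of Rtn1 plus Car3 UMIs (horizontal axes), with points for libraries, a line through the mean, bars of 1 SD over the 4 libraries and a dotted line at the selection threshold. Hapln1, Limch1 and Ptprb stood higher and Slit2, Aspn and Crabp1 lower at 4 or more UMIs than at 0, and Tagln stepped up at 4 or more.

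Cells with mostly *Rtn1* and cells with mostly *Car3* were not alike in all genes. Of the 825 cells, 659 held more *Rtn1* than *Car3* UMIs (Rtn1-type), 133 held more *Car3* (Car3-type) and 33 held equal numbers and entered neither class. *Actg2*, *Acta2*, *Myl9*, *Cnn1* and *Thsd7b* were higher in Car3-type cells, and the imprinted cell cycle inhibitor *Cdkn1c*, the calpain-family gene *Capn6* and 5 of 18 tested immediate early and heat shock genes were higher in Rtn1-type cells. Of 7997 tested genes 97 passed (1.21%, edgeR's quasi-likelihood test with library as a term, n = 4 libraries), 48 higher (0.6%) and 49 lower (0.613%) in Rtn1-type cells. Car3-type cells were few, 32, 30, 34 and 37, and deeper, with medians of 8826, 8196, 7001.5 and 4418 UMIs against 6210, 6683, 5976 and 3837 UMIs. Here too, genes named for the size of their difference had to keep their direction in 4 of 4 libraries.

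Some contractile genes were among those higher in Car3-type cells. *Actg2*, the gamma-actin of enteric smooth muscle, stood at 31.5, 108, 18.4 and 141 CPM in Car3-type cells and at 11.1, 7.78, 8.61 and 19.3 CPM in Rtn1-type cells (log2 difference, Rtn1-type minus Car3-type, -2.56, SE 0.34, adjusted p = 4.33e-05, 4 of 4 libraries). *Acta2*, the smooth muscle alpha-actin gene, stood at 476, 715, 579 and 435 CPM against 328, 216, 297 and 269 CPM (-0.997, SE 0.17, adjusted p = 0.00993). *Myl9*, a myosin light chain gene, stood at 117, 181, 122 and 97.9 CPM against 73.9, 55.4, 61.2 and 66.9 CPM (-1.02, SE 0.19, adjusted p = 0.00195). All 3 were higher in Car3-type cells of 4 of 4 libraries, with *Actg2* uneven among them. *Cnn1* followed (-0.91, adjusted p = 0.0185), so that 2 of 5 tested smooth muscle and pericyte genes passed, with a list median of -0.91 beside -0.01 over all tested genes. *Tagln* did not pass, at 666, 1414, 895 and 1414 CPM against 673, 407, 482 and 530 CPM (-1.04, SE 0.37, adjusted p = 0.567). *Actg2* passed with each library left out, whereas *Acta2* did not without *Ets1* eKO replicate 1 (-1.01, adjusted p = 0.143) and *Myl9* did not without control replicate 2 (-0.75, adjusted p = 0.107). *Cnn1* did not pass without control replicate 2 (-0.76, adjusted p = 0.243), *Ets1* eKO replicate 1 (-0.84, adjusted p = 0.141) or the other eKO library (-0.85, adjusted p = 0.148). In cells of 5000 to 20000 UMIs *Acta2* (-0.86, adjusted p = 0.0856) and *Cnn1* (-0.97, adjusted p = 0.0661) did not pass either, nor did *Myl9* (adjusted p = 0.0509) and *Cnn1* (adjusted p = 0.308) by DESeq2.

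*Thsd7b*, which encodes a thrombospondin-repeat protein (chr1:129273302-130219278, plus strand), stood at 164, 241, 254 and 228 CPM in Car3-type cells and at 69.3, 78.8, 67.9 and 61.9 CPM in Rtn1-type cells (-1.66, SE 0.16, adjusted p = 1.28e-08). The classes lay far apart in every library. The integrin gene *Itga4* was also higher in Car3-type cells, at 41.0, 40.2, 140 and 125 CPM against 21.3, 26.3, 34.4 and 47.7 CPM (-1.38, adjusted p = 0.000936), but did not pass without *Ets1* eKO replicate 1 (-1.05, adjusted p = 0.0918) or in cells of 5000 to 20000 UMIs (-1.31, adjusted p = 0.0627). On the other side, *Cdkn1c*, an inhibitor of cyclin-dependent kinases, stood at 128, 283, 271 and 240 CPM in Rtn1-type cells against 82.0, 80.4, 77.4 and 136 CPM (1.28, SE 0.18, adjusted p = 7.65e-05). *Capn6* stood at 61.9, 97.3, 66.9 and 53.8 CPM against 28.4, 20.1, 18.4 and 5.44 CPM (1.83, SE 0.29, adjusted p = 0.000488). Both were higher in Rtn1-type cells of 4 of 4 libraries, a condition for naming them, and passed with each library left out. The imprinted gene *Mest* (1.19), the phosphatase gene *Ppm1l* (1.41) and the cytokine-signalling inhibitor *Socs3* (1.17) were higher in 4 of 4 libraries as well, although *Mest* and *Ppm1l* just missed the threshold by DESeq2 (adjusted p = 0.0504 for each) and *Socs3* missed it in cells of 5000 to 20000 UMIs (adjusted p = 0.0580). *Abi3bp* was higher by 2.28 (adjusted p = 0.0411), but not past the threshold without control replicate 2 (1.96, adjusted p = 0.149).

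By list, 5 of 18 immediate early and heat shock genes were higher in Rtn1-type cells (median 0.21), among them *Junb*, at 361, 235, 177 and 200 CPM against 202, 121, 95.8 and 120 CPM (0.84, adjusted p = 0.000496, 4 of 4 libraries). Of 13 imprinted growth genes 3 were higher and 1 lower, of 28 collagen and matrix fibre genes 1 and 3, of 16 proteoglycan and hyaluronan genes 1 and 1, and of 21 S phase genes 0 and 1. In this last list 20 of 21 genes lay below 0 (median -0.42) and 11 had an unadjusted p under 0.05. Of 23 G2 and mitosis genes 0 passed in edgeR's test, with 2 at an unadjusted p under 0.05. Cardiomyocyte markers gave 0 of 6, with 4 at an unadjusted p under 0.05 and 5 above 0 (median 0.35), and by DESeq2 0 as well. The atrial myosin light chain gene *Myl7*, outside that list, was higher in Rtn1-type cells, at 36.0, 108, 44.0 and 59.8 CPM against 25.2, 16.1, 25.8 and 16.3 CPM (1.44, SE 0.31, adjusted p = 0.00993). It did not pass without control replicate 2 (0.93, adjusted p = 0.373), without *Ets1* eKO replicate 2 (1.34, adjusted p = 0.112) or in cells of 5000 to 20000 UMIs (1.09, adjusted p = 0.302). Erythroid markers gave 0 of 5, with 2 at an unadjusted p under 0.05 and 5 above 0 (median 4.23), and the median was -0.06 once cells over 2% hemoglobin were removed. Whether free RNA or doublets carried these transcripts was not tested. *Hapln1* (0.08, SE 0.21, adjusted p = 0.958), *Postn* (-0.18, SE 0.08, adjusted p = 0.416) and *Ets1* (-0.35, SE 0.21, adjusted p = 0.650) did not pass between the types. *Hapln1* turned to -0.02 when control replicate 2 was left out, and to -0.03 and -0.04 when eKO replicates 1 and 2 were. The number of genes past the threshold was 49 with control replicate 2 left out, and 52 and 53 with eKO replicates 1 and 2 left out. It was 27 by DESeq2, 28 in cells of 5000 to 20000 UMIs, and 64 with at least 2 UMIs of the one gene and 0 of the other, 41 of them among the 97.

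**Figure D4:**
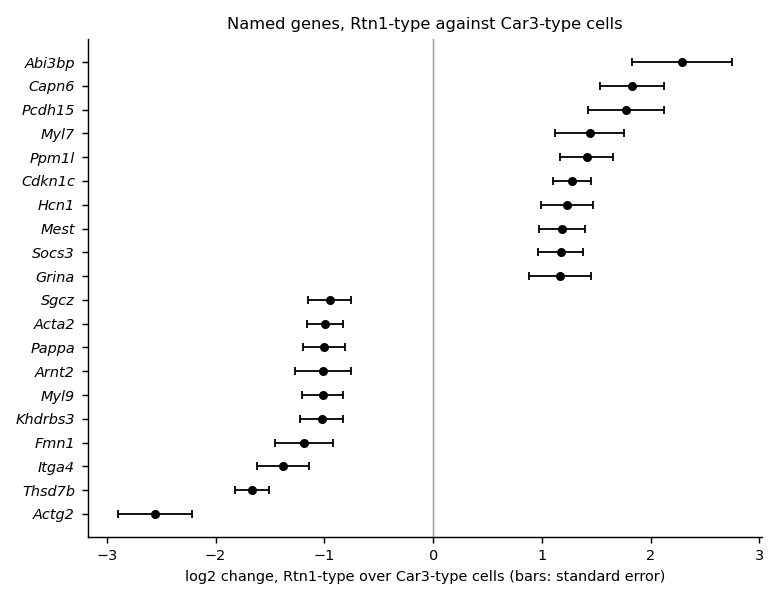
Log2 difference between Rtn1-type and Car3-type cells (horizontal axis) for the 20 named genes (vertical axis), each with a point at the estimate and a bar of 1 standard error over 4 libraries. Points right of 0 were higher in Rtn1-type cells, led by Abi3bp and Capn6, and points left of 0 higher in Car3-type cells, led by Actg2 and Thsd7b.

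The share of Rtn1/Car3 cells among cushion cells overlapped between the genotypes. They made up 37.9% (95% exact interval 33.6 to 42.3) and 32.5% (28.6 to 36.7) of the cushion cells of the controls, against 41.6% (37.0 to 46.2) and 37.3% (33.8 to 40.9) in *Ets1* eKO libraries. The means were 35.2% (SD 3.78) and 39.4% (SD 3.03), and the groups overlapped (difference 4.24 points, exact two-sided permutation test, p = 0.667, where 2 against 2 libraries cannot give a p below 0.333). The difference moved to 6.92 or 1.56 points when control replicate 1 or 2 was left out, and to 2.10 or 6.38 points when eKO replicate 1 or 2 was. Thinned to 4000 UMIs per cell, the shares were 28.7% and 24.5% against 34.5% and 37.9%, a difference of 9.62 points without overlap (exact permutation p = 0.333). Thinning left out 71, 79, 106 and 463 shallower cells, most of them in *Ets1* eKO replicate 2. With cartilage-collagen cushion cells in the denominator the shares were 16.3% and 13.0% against 19.2% and 23.0% (exact permutation p = 0.333), and of all barcodes that passed the cell filter 2.08% and 2.77% against 2.47% and 2.21%, where the difference turned to -0.0835 points. With at least 3 UMIs required, the difference was 1.70 points.

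Within the Rtn1/Car3 cells, the share of Rtn1-type among cells of either type was 82.7% and 81.4% in controls against 81.5% and 85.9% in *Ets1* eKO libraries. The groups overlapped (means 82.0%, SD 0.945, and 83.7%, SD 3.08, exact two-sided permutation p = 0.667). The difference of 1.67 points turned to -0.513 without *Ets1* eKO replicate 2 and was 3.84 at most with a library left out. Thinned to 4000 UMIs the group means were 77.2% (SD 1.06) and 80.5% (SD 1.31), without overlap and 3.27 points apart (exact permutation p = 0.333).

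Between genotypes, *Npy*, *Clu*, *Xkr4* and further genes of Rtn1/Car3 cells were higher in the *Ets1* eKO libraries, and *Cntn4*, *Sgcz* and *Mpped2* were lower. Of 10165 tested genes, 9 passed in edgeR's quasi-likelihood test (0.0885%), 6 higher (0.059%) and 3 lower (0.0295%), with 833 genes at an unadjusted p under 0.05. The p-values measure spread between pools of 3 ventricles, with 2 pools per genotype, so the count of calls is no measure of the size of the effect.

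*Npy*, the gene of neuropeptide Y (chr6:49822710-49829507), stood at 9.63 and 5.12 CPM in controls against 34.9 and 46.6 CPM in *Ets1* eKO libraries (log2 change 2.53, SE 0.34, adjusted p = 0.00591). *Clu*, which encodes the secreted chaperone clusterin (chr14:65968483-65981547), stood at 78.4 and 71.6 CPM against 156 and 140 CPM (1.07, SE 0.17, adjusted p = 0.0203). For both genes each *Ets1* eKO library lay above each control, which was a condition for naming them and adds no support. *Xkr4*, of the XK family of membrane proteins, rose from 42.6 and 35.1 CPM to 77.2 and 78.2 CPM (1.09, SE 0.20, adjusted p = 0.0434), and the predicted gene *Gm35533* from 88.7 and 70.9 CPM to 138 and 157 CPM (0.98, SE 0.18, adjusted p = 0.0434). The low-level genes *Gngt2*, a G-protein gamma subunit (3.44 and 2.19 against 20.0 and 15.0 CPM, adjusted p = 0.0434), and the predicted gene *Gm3331* (0.688 and 0 against 14.1 and 18.3 CPM, adjusted p = 0.00931) rose as well. *Cntn4*, a neuronal adhesion gene, fell from 33.7 and 48.2 CPM to 13.4 and 9.15 CPM (-1.75, SE 0.31, adjusted p = 0.0434). *Sgcz*, a sarcoglycan gene, fell from 74.3 and 91.3 CPM to 31.9 and 34.9 CPM (-1.21, SE 0.21, adjusted p = 0.0407). *Mpped2*, a metallophosphoesterase gene (chr2:106693269-106868356), fell from 319 and 338 CPM to 167 and 171 CPM (-0.86, SE 0.16, adjusted p = 0.0434). In these 3 genes both *Ets1* eKO libraries lay below both controls, again a condition for naming them.

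These calls depended on the libraries used. Without control replicate 2, 7 genes passed and 0 of the 9 were among them, with adjusted p between 0.0679 for *Npy* and 0.681 for *Gm35533*, and log2 changes from -1.48 for *Cntn4* to 4.45 for *Gm3331*. Without control replicate 1, 18 genes passed, 3 of the 9 among them, and with eKO replicate 1 or 2 left out 138 or 101 genes passed, 8 or 9 of the 9 among them. In each of these fits the lone library of a group was assumed to vary like the others. DESeq2 called 1 gene (*Npy*), total count scaling 6 genes, 3 higher and 3 lower, and cells of 5000 to 20000 UMIs gave 5 genes, 3 of them among the 9.

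**Figure D5:**
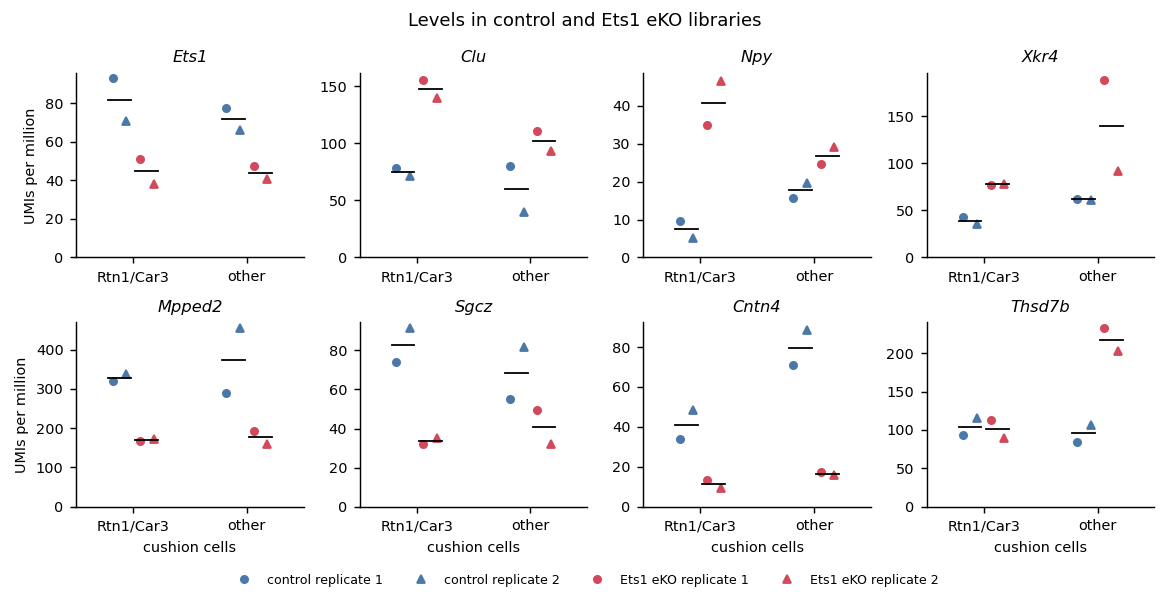
Levels of 8 genes in CPM (UMIs scaled to a common total) (vertical axes) in control and Ets1 eKO libraries, in Rtn1/Car3 cells and in other cushion cells (horizontal axes), with a point per library and a line at each group mean. Ets1, Cntn4 and Mpped2 lay lower and Clu higher in Ets1 eKO libraries of both classes, while Thsd7b lay higher in Ets1 eKO libraries of the other cushion cells.

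Genes next in order gave values that did not pass. *Itga4* stood at 25.4 and 29.2 CPM in controls against 54.9 and 60.7 CPM in *Ets1* eKO libraries (1.17, adjusted p = 0.0618), and passed without eKO replicate 1 (1.26, adjusted p = 0.00171) or 2 (1.08, adjusted p = 0.0190). On the lower side, *Nfkbiz*, an inflammatory nuclear regulator, stood at 109 and 102 against 60.1 and 43.3 CPM (-0.93, adjusted p = 0.142), and *Stat3* at 294 and 280 against 155 and 173 CPM (-0.71, adjusted p = 0.176). The immediate early gene *Nr4a1* stood at 50.2 and 38.7 against 17.1 and 19.1 CPM (-1.21, adjusted p = 0.176). In each of these the genotypes did not overlap in level, which a choice by smallest p favours. The others taken on the higher side were *Pla2g5* (mean 3.20 CPM in controls and 15.0 CPM in *Ets1* eKO libraries) and *Cdo1* (19.1 and 41.6 CPM). *Tyrobp* (0.365 and 7.82 CPM) and *Kcnk3* (2.54 and 14.0 CPM) were also on that side. On the lower side the others were *Olfr1033* (20.5 and 5.14 CPM) and *Man1a* (67.1 and 30.9 CPM).

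*Hapln1* and *Postn* did not pass. *Hapln1* stood at 185 and 171 CPM in controls against 196 and 290 CPM in *Ets1* eKO libraries (0.54, SE 0.19, adjusted p = 0.421), not overlapping, and passed without *Ets1* eKO replicate 1 (0.81, adjusted p = 0.00195). *Postn* stood at 1747 and 1342 against 1822 and 1373 CPM (0.14, SE 0.19, adjusted p = 0.881), and turned to -0.05 without control replicate 2 and -0.06 without *Ets1* eKO replicate 1. *Rtn1*, which chose the cells, averaged 465 CPM (SD 59.7) in controls and 637 CPM (SD 111) in *Ets1* eKO libraries. The requirement of 2 UMIs sets a higher floor in CPM for shallower cells. *Ets1* eKO replicate 2 was the shallowest, with a median of 3893.5 UMIs, and the part of depth in this difference was not tested.

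None of the listed genes passed in edgeR's test, where 61 of the 342 tested had an unadjusted p under 0.05, nor by DESeq2. Of 12 cushion markers 0 passed (median 0.01, beside 0.01 over all tested genes), as did 0 of 25 cushion transcription factors (-0.07), 0 of 28 collagen and matrix fibre genes (-0.02) and 0 of 18 proteoglycan and hyaluronan genes (-0.07). Cell cycle lists gave 0 of 22 S phase genes (0.21) and 0 of 23 G2 and mitosis genes (0.10). Among these larger lists, medians farther from 0 were those of glycolysis and hypoxia genes (0.24, 0 of 20), guidance genes (-0.28, 0 of 23) and immediate early and heat shock genes (-0.30, 0 of 19). The signalling lists gave 0 of 26 BMP and TGF-beta, 0 of 22 Wnt, 0 of 12 Notch and 0 of 22 growth factor genes. At an unadjusted p under 0.05 in edgeR's test these lists held 7, 5, 2 and 3 genes. The glycolysis and hypoxia, guidance, and immediate early and heat shock lists held 3, 6 and 7, beside 833 of 10165 over all tested genes. Shorter lists of other cell types also gave 0 calls by edgeR and DESeq2, with medians of -0.75 for epicardial (5 tested, 5 below 0), 0.55 for *Tcf21*-type fibroblast (4 tested, 3 at an unadjusted p under 0.05), 0.36 for cartilage (6 tested, 3 at such a p) and 0.34 for cardiomyocyte genes (7 tested, 1 at such a p, 6 above 0). Medians were larger for erythroid genes (6.08, 5 tested), sex-linked genes (-1.46, 5 tested) and the 1 tested immune gene (4.23, at an unadjusted p under 0.05).

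The same comparison in the other cushion cells, from the same libraries, gave 24 of 11041 tested genes (0.217%), 8 higher (0.0725%) and 16 lower (0.145%). *Cntn4* fell there too, from 71.1 and 88.4 CPM to 17.2 and 15.7 CPM (-2.21, adjusted p = 6.31e-05), as did *Mpped2*, from 291 and 454 CPM to 194 and 159 CPM (-1.01, adjusted p = 0.0411), the latter not without control replicate 2 (-0.68, adjusted p = 0.867). *Gm3331*, with no UMI in either control, stood at 14.4 and 9.68 CPM in *Ets1* eKO libraries (adjusted p = 0.0016). *Npy* stood at 15.8 and 19.6 against 24.7 and 29.0 CPM (0.67, adjusted p = 0.650) and *Clu* at 80.0 and 39.6 against 111 and 93.2 CPM (0.83, adjusted p = 0.604). For none of the genes past the threshold in Rtn1/Car3 cells did the difference between the classes pass, as with *Npy* (1.88, adjusted p = 0.119) and *Cntn4* (0.46, adjusted p = 0.958). For these genes, an effect called in 1 class is thus not shown to be absent from the other. The number of calls in other cushion cells was 83 with control replicate 1 left out, 144 or 93 with eKO replicate 1 or 2 left out, 10 by DESeq2 and 1 in cells of 5000 to 20000 UMIs.

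A test of the difference between the effects in the classes found 7 of 10881 genes (0.0643%), 5 higher (0.046%) and 2 lower (0.0184%) in Rtn1/Car3 cells. *Negr1*, given further below, and *Thsd7b* were the abundant genes among them. In Rtn1/Car3 cells *Thsd7b* stood at 92.8 and 116 CPM in controls against 113 and 89.8 CPM in *Ets1* eKO libraries. In other cushion cells *Thsd7b* rose from 84.5 and 107 CPM to 233 and 203 CPM (1.25, adjusted p = 0.00226), though not past the threshold in cells of 5000 to 20000 UMIs (1.19, adjusted p = 0.437). The effects differed by -1.19 on the log2 scale (SE 0.17, adjusted p = 0.00154 by edgeR's quasi-likelihood test). The difference passed with each library left out, but not in cells of 5000 to 20000 UMIs (adjusted p = 0.0750) or by DESeq2 (adjusted p = 0.785). DESeq2 called 0 genes in this test, with 30 at an unadjusted p under 0.05. Without control replicate 1 edgeR called 47.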

How the data were processed

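The deposited matrices hold raw UMI counts per gene and cell barcode, which the authors made with Cell Ranger 7.1.0 on the mouse mm10 reference, per the submitters' processing notes. The paper's methods list a correction of background RNA with CellBender and removal of doublets with DoubletFinder. Whether either step preceded deposit is not stated. Cells were chosen by the rule given in the results, in Python 3.11.15 with numpy 2.4.6, scikit-learn 1.9.0, pandas 2.3.3, matplotlib 3.10.9 and scipy 1.17.1. UMIs were summed per library and class, and CPM scale each such sum to a common total. Genes were tested with edgeR 4.0.16 (TMM scaling, filterByExpr, robust quasi-likelihood test, Benjamini-Hochberg, threshold 0.05) in R 4.3.3 with limma 3.58.1, with the library as a term where classes were compared. The 22 genes of the selection rule were left out of test and adjustment. Adjusted p-values and log2 values in the results are from edgeR unless DESeq2 is named. The procedure was tested on simulated data.

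Shares were compared by an exact two-sided permutation test over libraries. Their 95% exact Clopper-Pearson intervals cover counting error only.

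Members, comparisons and gene lists were chosen with earlier results of these data known. Named genes were *Ets1*, the genes of the rule and the markers *Rtn1*, *Car3*, *Hapln1* and *Postn*. Further named genes were the 10 (eKO against control), 12 (Rtn1/Car3 against other cushion cells) or 10 (Rtn1-type against Car3-type) with the largest change per direction among those past the threshold. They also had to exceed 20 CPM on average (eKO) or 50 CPM in the higher class, and not overlap between groups (eKO) or keep their direction in 4 of 4 libraries. With fewer than 5 such genes in a direction, the 5 with the smallest unadjusted p were taken. For the difference of effects the 5 with the smallest p were taken, and from each list its genes past the threshold. *Gm3331*, *Gngt2*, *Xist* and *Ddx3y* were named after their values were seen.

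As alternatives, the comparisons were rerun with DESeq2 1.42.0, without TMM (total count scaling), without filterByExpr, after removal of doublets, in cells of 5000 to 20000 UMIs, with a replicate block, with stricter selection and with each library left out. Shares were also recomputed after thinning to 4000 UMIs and with other denominators. Removal of cells over 2% hemoglobin UMIs was chosen after seeing the data. The doublet score compared each barcode with 2 simulated doublets per cell (2000 genes, 30 components, 90 neighbours), and the top 0.8% per 1000 cells of a library were removed in that alternative only. Gene positions are from GENCODE on GRCm38.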

Additional observations from a re-analysis of the deposited data

Results flagged for a closer look

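For 7 genes the eKO effect in Rtn1/Car3 cells differed from that in other cushion cells in edgeR's test of the difference itself. *Thsd7b* had a difference of -1.19 on the log2 scale, with levels of 92.8, 116, 113 and 89.8 CPM in Rtn1/Car3 cells and 84.5, 107, 233 and 203 CPM in other cushion cells, in the order controls, then *Ets1* eKO libraries. *Negr1* had a difference of -0.71 (166, 200, 137 and 105 CPM against 243, 325, 365 and 261 CPM, adjusted p = 0.0449), and did not pass without eKO replicate 1 (-0.64, adjusted p = 0.771) or 2 (-0.76, adjusted p = 0.262), with doublets removed (adjusted p = 0.0620), in cells of 5000 to 20000 UMIs (adjusted p = 0.225) or with cells over 2% hemoglobin removed (adjusted p = 0.0622). *Thsd7b* passed with each library left out, but not in cells of 5000 to 20000 UMIs (adjusted p = 0.0750). DESeq2 called 0 of the 7, with 30 genes at an unadjusted p under 0.05.

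The other 5 were immune or hemoglobin genes at low counts, whose fitted values depend on the prior count and are no measure of size. *Lyz2* had a fitted difference of 7.51 (0.688, 0.731, 14.1 and 4.16 CPM against 85.5, 13.2, 2.06 and 4.24 CPM). *Tyrobp* had 6.36 (0, 0.731, 8.16 and 7.49 CPM against 14.3, 26.9, 1.37 and 7.87 CPM). *Fcer1g* had 5.66 (0, 0.731, 5.19 and 8.32 CPM against 23.7, 15.0, 0.687 and 12.1 CPM). *Ccl4* had 5.61 (0.688, 0, 0 and 34.1 CPM against 8.89, 5.47, 0 and 12.1 CPM). *Hbb-bh1* had 8.37 (0, 0, 0 and 22.5 CPM against 17.3, 2.73, 1.37 and 7.26 CPM). Leaving out a library also moved these calls. *Lyz2* (6.02, adjusted p = 0.0626) and *Fcer1g* (5.01, adjusted p = 0.0810) did not pass without eKO replicate 1, and *Ccl4* (4.11) and *Hbb-bh1* (2.78) did not without eKO replicate 2, the latter also not without control replicate 1 (6.41, adjusted p = 0.364). None of the 5 passed in cells of 5000 to 20000 UMIs. With doublets removed, *Thsd7b* and *Hbb-bh1* were the 2 genes that passed, while *Lyz2*, *Tyrobp*, *Fcer1g* and *Ccl4* were no longer tested, and with cells over 2% hemoglobin removed *Hbb-bh1* was no longer tested. The summed immune markers were 164, 103, 8.93 and 60.5 CPM in other cushion cells, and their part in these differences was not tested.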

How the results depend on the processing

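The number of genes past the threshold varied with the processing. For eKO against control in Rtn1/Car3 cells, 9 became 1 with DESeq2, 76 without a filter on low counts, 5 in cells of 5000 to 20000 UMIs, 5 with at least 3 UMIs of *Rtn1* plus *Car3*, and 7 to 138 with a library left out. For the same comparison in other cushion cells, 24 became 10, 107 and 1 in the first 3 of these settings, 39 with doublets removed, and 36 to 144 with a library left out. For Rtn1/Car3 against other cushion cells, 867 became 240 with DESeq2, 470 in cells of 5000 to 20000 UMIs and 593 to 696 with a library left out. For Rtn1-type against Car3-type cells, 97 became 27 with DESeq2, 169 without a filter, 28 in cells of 5000 to 20000 UMIs, 64 with at least 2 UMIs of the one gene and 0 of the other, and 49 to 120 with a library left out. For the difference of eKO effects, 7 became 0 with DESeq2 (30 genes at an unadjusted p under 0.05), 31 without a filter, 2 with doublets removed (4 of the 7 no longer tested), 0 in cells of 5000 to 20000 UMIs (480 at an unadjusted p under 0.05 in edgeR) and 5 to 47 with a library left out. Fewer cells or fewer tested genes enter some of these settings, and the cause was otherwise not tested.

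With replicate number as a block, the eKO comparison called 2 genes in Rtn1/Car3 cells and 66 in other cushion cells. The libraries share no more than a number, and deviations of equally numbered libraries from their group means correlated across genes at -0.0788 and -0.120 in the 2 classes, so the block was not used.

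The difference in the share of Rtn1/Car3 cells ranged from 1.56 to 6.92 points with a library left out, and was -0.0835 points with all filtered barcodes as denominator. That in the share of Rtn1-type cells ranged from -0.513 to 3.84 points, the lowest without eKO replicate 2. Signs also turned for values near 0. *Postn* turned in the eKO comparison of Rtn1/Car3 cells (-0.0510 without control replicate 2, -0.0624 without eKO replicate 1, up to 0.356 with another library left out) and of other cushion cells (-0.0359 without control replicate 2, up to 0.286). In the difference of effects it turned to -0.00461 with total count scaling, -0.0156 without control replicate 2 and -0.0788 without eKO replicate 1, and reached 0.150. *Hapln1* between the types turned to -0.0165, -0.0338 and -0.0399 without control replicate 2, eKO replicate 1 and eKO replicate 2, and reached 0.465 without control replicate 1, while *Sparc* between the classes turned to -0.00576 in cells of 5000 to 20000 UMIs. Causes were not tested. Of the remaining values for single genes in Rtn1/Car3 against other cushion cells, 1275 kept direction and side of the threshold and 268 kept direction alone. For eKO against control in Rtn1/Car3 cells, 190 kept both, 44 lost the threshold and 22 gained it, and in other cushion cells 192, 32 and 27. Between the types 308 kept both, 128 lost the threshold and 3 turned, and for the difference of effects 65, 17 and 3.

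Depth limits these results in *Ets1* eKO replicate 2, where the median Rtn1/Car3 cell held 3893.5 UMIs, so that a cell can fall below 2 UMIs of *Rtn1* plus *Car3* at an equal level. With a library left out, 1 group has a lone library, assumed to vary like the others.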

Other observations

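The cushion cells with cartilage collagens, which were not chosen on *Rtn1*, held 284 and 219 CPM of *Rtn1* in controls against 422 and 428 CPM in *Ets1* eKO libraries. The groups did not overlap, and an exact permutation test of 2 against 2 libraries cannot give a p below 0.333. *Ets1* stood at 89.0 and 78.4 CPM against 42.9 and 38.5 CPM in these cells.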
